A study of Mus musculus with 6 samples.

Results

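The genes described here are those of the mouse major histocompatibility complex (MHC), called H2 in the mouse, and the genes that load peptides onto its products. They are the 34 protein-coding genes whose symbol starts with H2-, together with B2m, Tap1, Tap2, Tapbp, Tapbpl, Nlrc5, Erap1, Cd74 and Ciita, 43 of the 54532 genes in the deposited table. By class they were 2 classical class I heavy chains, 22 class Ib heavy chains, 10 class II molecules and accessories (Cd74 included), 1 gene that carries an H2 name without encoding an MHC molecule (H2-Ke6, a steroid dehydrogenase) and the remaining 8 loading genes and transactivators. The RNA came from mouse cells labelled as primary fibroblasts of the lung, in 3 libraries titled NC and 3 titled KD, in which calumenin was targeted. The descriptions of the same libraries call them WT and KO, the labels do not spell out NC, and they give no strain, animal, knockdown agent or time. The Calu gene encodes calumenin, which binds calcium in the secretory pathway, and the series set out to learn how its loss bears on fibrosis and senescence. The labels do not give the origin of each replicate, so p-values measure only the spread between these libraries, which may be technical.

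MHC class I molecules sit on nearly all nucleated cells and show peptides from inside the cell to CD8 T cells and natural killer cells. A heavy chain pairs with the light chain beta-2-microglobulin in the endoplasmic reticulum, where the TAP transporter brings in peptides, ERAP1 trims them, and tapasin and the related TAPBPR select those that bind tightly. Classical heavy chains (H2-K and H2-D) present a broad range of peptides, while class Ib heavy chains are less variable and often serve special ligands or receptors. Class II molecules present peptides from endosomes and belong mainly to dendritic cells, macrophages and B cells, with the invariant chain CD74 and the peptide editor H2-DM as accessories. Interferons raise class I genes through interferon response elements and NLRC5, and class II genes through CIITA.

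The promoters of 6 members, picked after the differences were seen, are shown for 2 forms of the interferon response element. H2-T22 and H2-T23, which fell steeply, carry the full form. B2m, the light chain, also carries it and kept 66.8% of its NC level. H2-K1, at 73.4% of NC, H2-Q4 and H2-M3 carry a shorter form. Tap1, at 47.6% of NC, Tapbp and Erap1 also fell, and their promoters, not shown, held neither form. A link between the form and the size of a difference was not tested. Each promoter is the stretch of 250 bases before a RefSeq start (GRCm38.p6), read in the direction of the gene. They lie at chr17:34000334-34000583 on the minus strand for H2-K1, chr17:35379367-35379616 on the plus strand for H2-Q4, chr17:37269984-37270233 on the plus strand for H2-M3, chr17:36042743-36042992 on the minus strand for H2-T22, chr17:36032702-36032951 on the minus strand for H2-T23 and chr2:122147437-122147686 on the plus strand for B2m. Capitals mark matches on either strand to GAAA, any 2 bases and GAAA (the core of the interferon-stimulated response element), its shorter form GAANNGAAA, GGGNNTTCC (an NF-kB core) and TGACGC (the core of the X2 box or site alpha, part of the element that NLRC5 acts through).
H2-K1: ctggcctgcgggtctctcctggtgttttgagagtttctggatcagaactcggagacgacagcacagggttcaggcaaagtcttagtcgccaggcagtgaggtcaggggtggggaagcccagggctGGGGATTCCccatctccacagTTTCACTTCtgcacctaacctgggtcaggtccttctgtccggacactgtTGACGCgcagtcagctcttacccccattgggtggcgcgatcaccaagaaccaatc
H2-Q4: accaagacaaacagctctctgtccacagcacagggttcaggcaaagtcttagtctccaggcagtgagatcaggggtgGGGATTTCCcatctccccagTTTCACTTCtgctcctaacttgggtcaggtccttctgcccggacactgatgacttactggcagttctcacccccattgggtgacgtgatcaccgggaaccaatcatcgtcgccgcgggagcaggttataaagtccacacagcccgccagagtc
H2-M3: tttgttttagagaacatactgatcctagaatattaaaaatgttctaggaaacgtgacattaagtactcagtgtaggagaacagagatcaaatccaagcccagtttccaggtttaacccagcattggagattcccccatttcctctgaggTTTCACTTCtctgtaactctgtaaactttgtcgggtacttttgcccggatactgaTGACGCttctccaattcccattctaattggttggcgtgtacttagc
H2-T22: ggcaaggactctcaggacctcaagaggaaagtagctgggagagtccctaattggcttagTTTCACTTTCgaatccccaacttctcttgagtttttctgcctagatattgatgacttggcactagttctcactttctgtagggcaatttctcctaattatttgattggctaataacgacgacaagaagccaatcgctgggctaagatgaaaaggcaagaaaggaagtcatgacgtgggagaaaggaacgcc
H2-T23: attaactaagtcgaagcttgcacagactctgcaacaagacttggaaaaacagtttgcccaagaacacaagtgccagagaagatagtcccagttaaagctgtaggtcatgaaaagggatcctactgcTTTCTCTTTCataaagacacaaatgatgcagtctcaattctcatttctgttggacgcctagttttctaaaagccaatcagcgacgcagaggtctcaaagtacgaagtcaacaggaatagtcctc
B2m: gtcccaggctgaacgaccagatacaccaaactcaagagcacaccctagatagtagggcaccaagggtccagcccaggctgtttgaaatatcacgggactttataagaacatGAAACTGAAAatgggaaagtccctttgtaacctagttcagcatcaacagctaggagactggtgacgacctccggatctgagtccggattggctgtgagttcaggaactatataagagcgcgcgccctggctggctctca

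RefSeq windows were found for 35 of the 43 members, 13 of them among the 19 members expressed highly enough to test, and the window nearest to the deposited gene start was taken for each. The full interferon element was in 3 of these 13, H2-T22 (191 bases before the start), H2-T23 (124 bases) and B2m (139 bases), and in 2.98% of 32851 windows of the same length over all genes. The shorter form was in 4 of the 13, H2-K1 (104 bases before the start), H2-D1, H2-Q4 (153 bases) and H2-M3 (101 bases), and in 6.31% of all windows. A match to either form is not by itself a match to the other. Neither form was in the windows of Tap1, Tapbp and Erap1, which fell, or of H2-DMa, H2-DMb1 and H2-DMb2, which rose. The NF-kB core was in H2-K1, H2-D1 and H2-Q4 (4.98% of all windows). The X2 core in its exact letters was in H2-K1, H2-D1 and H2-M3 (6.12% of all windows). Stretches that differ from it in the last letter, such as TGACGA in B2m and TGACGT in H2-Q4 and H2-T22, were not counted. The CCAAT box, which binds NF-Y, was in 12 of the 13 and in 33.8% of all windows. For H2-DMa, Tapbp and H2-DMb2 the nearest RefSeq start was 9664, 3579 and 1942 bases from the deposited gene start, so those windows may not be the promoter in use. For H2-D1, Erap1 and H2-T23 it was 364, 285 and 154 bases away. Element positions are counted from the RefSeq start and may not compare exactly between genes. These matches describe letters in a window and not sites in use.

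The libraries held between 15907164 and 18312888 recovered reads. KD1 stood apart from the other KD libraries, with a chi-square per degree of freedom of 17.5 and 29.1 against KD2 and KD3, where other replicate pairs had 2.31 to 4.47. KD1 also had a mitochondrial share of 2.56% of reads, against 1.60% to 1.97% elsewhere. Calu had 219.9, 227 and 225 FPKM (fragments scaled to gene length and library size) in NC1, NC2 and NC3 and 14.6, 12.6 and 13.1 FPKM in KD1, KD2 and KD3, in the direction the labels give. Markers of the labelled cell type were mixed. Col1a1, Col1a2, Col3a1, Pdgfra, Pdgfrb, Vim and S100a4 were expressed, while Thy1 and Dcn had 34 and 3 reads in all 6 libraries and Lum had 0. Among those expressed Col1a1 and Pdgfra rose and Col3a1 and Pdgfrb fell, and the list summed to 1346 to 1372 FPKM in NC and 1451 to 1508 in KD. The part of cell composition in the results below was not tested. Of 13 markers of leukocytes and antigen-presenting cells 11 had a mean under 1 FPKM, with Ptprc at 14 reads and Adgre1 and Ms4a1 at 0, and the summed level of the list was 4.97 to 5.88 FPKM in NC and 3.42 to 5.10 in KD, mostly Cd68 and Lyz2. Epithelial and endothelial marker lists summed to at most 0.917 and 0.188 FPKM in any library.

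Most of the class I presentation genes were lower in the KD libraries, and the class II accessory H2-DM was higher. Of the 19 members with a mean of at least 1 FPKM, 12 were lower and 3 were higher by limma on log2(FPKM + 1) with Benjamini-Hochberg adjustment over all 12299 genes tested. Of all genes tested, 13.6% were lower and 10.9% were higher, 24.5% in all. The KD values lay wholly below the NC values in 14 members and wholly above them in 4, where 22.9% and 21.3% of all genes did so. The median log2 difference was -0.45 over the 19 members and 0.01 over all genes tested. The 3 largest falls were the class Ib genes H2-T24, H2-T23 and H2-T22. In bulk RNA, fewer cells that express a gene and less of its RNA per cell cannot be told apart.

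**Figure D1:**
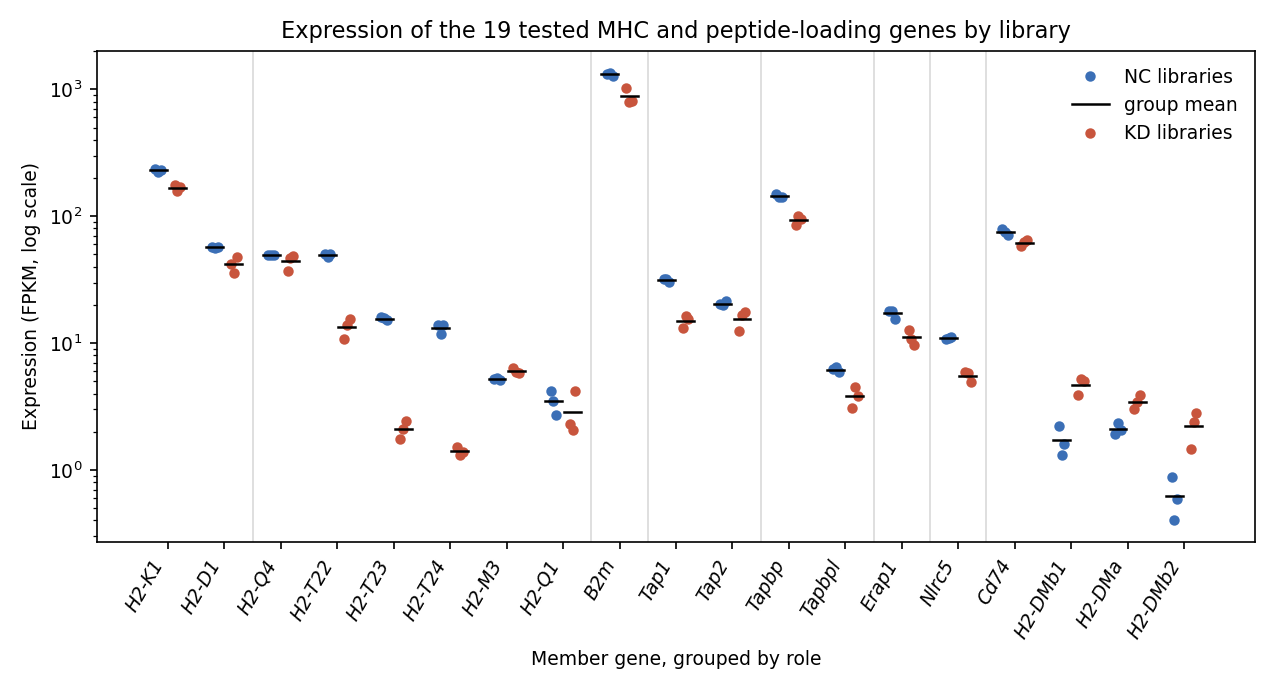
Expression of each of the 19 tested members in FPKM (log axis), with NC libraries as blue points, KD libraries as red points and the group means as black bars. H2-T22, H2-T23 and H2-T24 show the widest gaps between the groups, H2-Q4 and H2-Q1 the narrowest among the class I genes that were lower on average, and the 3 H2-DM genes are higher in KD.

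The order of levels was steep. B2m ranked 15 of the 12299 tested genes by mean FPKM, H2-K1 ranked 162, Tapbp 325, Cd74 660, H2-D1 992 and H2-Q4 1055, while the H2-DM genes ranked from 9430 to 11515. In NC the order ran from B2m through H2-K1, Tapbp, Cd74, H2-D1, H2-Q4, H2-T22, Tap1, Tap2, Erap1, H2-T23, H2-T24, Nlrc5, Tapbpl, H2-M3, H2-Q1, H2-DMa and H2-DMb1 to H2-DMb2. Neighbours whose NC libraries overlapped were H2-Q4 with H2-T22, Erap1 with H2-T23, and H2-DMa with H2-DMb1. The plot of member expression by library shows this order within each role.

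The classical heavy chains fell by a similar proportion. H2-K1, the presenting molecule H2-K, lies on the minus strand of chromosome 17 at 33996017 to 34000333 (mm10, ENSMUSG00000061232). It had 234, 225 and 229.7 FPKM in NC1, NC2 and NC3 and 177, 159 and 169 FPKM in KD1, KD2 and KD3. No KD library reached the lowest NC library, the KD level was 73.4% of the NC level, and the log2 difference was -0.45 (SE 0.06, limma adjusted p = 0.00308). H2-D1, on the plus strand at 35262730 to 35267499 (ENSMUSG00000073411), had 57.1, 56.2 and 57.4 FPKM in NC and 41.9, 35.9 and 48.1 FPKM in KD. Its KD level was 73.7% of NC and its log2 difference -0.44 (SE 0.10, limma adjusted p = 0.0238), with more spread among the KD libraries than in NC. The H2-D1 call was lost without NC1, NC2, NC3 or KD2 (limma adjusted p from 0.0504 to 0.0824), while that of H2-K1 was kept without any 1 library.

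The H2-D1 level was 0.248 ± 0.003 of the H2-K1 level in the NC libraries and 0.249 ± 0.032 in the KD libraries (SD over 3 each). The log2 ratio differed by less than 0.01 (exact two-sided permutation p = 1, where 3 libraries against 3 cannot go below 0.10). KD3 had the highest ratio of the 6 libraries (0.285) and KD2 the lowest (0.225), so the equal means cover a wider range in KD than in NC.

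Class Ib heavy chains divided into genes that fell to a small part of their NC level and genes whose change did not pass the test. Of the 22, 6 were tested, 3 fell and 0 rose, where 13.6% and 10.9% of all genes tested did. H2-T24 (minus strand of chromosome 17, 36005695 to 36020560, ENSMUSG00000053835) had 14.0, 11.8 and 13.8 FPKM in NC and 1.51, 1.30 and 1.38 in KD. That is 10.6% of the NC level, a log2 difference of -2.56 (SE 0.08, limma adjusted p = 1.15e-05). H2-T23 encodes the heavy chain of Qa-1, which shows leader peptides of other class I chains to the natural killer receptor CD94/NKG2A (minus strand, 36029773 to 36032855, ENSMUSG00000067212). It had 16.1, 15.7 and 15.1 FPKM in NC and 1.76, 2.09 and 2.41 in KD, 13.4% of the NC level, with a log2 difference of -2.43 (SE 0.09, limma adjusted p = 2.06e-05). H2-T22, whose product is bound by some gamma-delta T cells (minus strand, 36037128 to 36042747, ENSMUSG00000056116), had 50.4, 47.3 and 50.1 FPKM in NC and 10.8, 13.9 and 15.5 in KD. It kept 27.2% of the NC level, a log2 difference of -1.81 (SE 0.12, limma adjusted p = 0.000218). The 1 added to FPKM before the log understates these falls. For H2-T24, H2-T23 and H2-T22 voom on the recovered reads gave -3.22, -2.91 and -1.90.

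The 3 T-region genes are neighbours, and among the 12299 tested genes they ranked 22, 23 and 55 by size of fall. Of all 12299 genes they were the only members of the 43 among the 100 largest falls, the next being Tap1 at rank 220. H2-T22 and H2-T23 carry the full interferon element in the promoters printed above, as does B2m, which kept 66.8% of its NC level. No RefSeq window was matched to H2-T24, and that of Tap1 held neither form.

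The other tested class Ib genes behaved differently from these. H2-Q4 had 49.8, 49.1 and 49.8 FPKM in NC and 36.7, 46.9 and 48.5 in KD. All KD values were below all NC values, but KD2 and KD3 only slightly, and the log2 difference of -0.18 (SE 0.11) did not pass (limma adjusted p = 0.265). Without KD1 it was -0.05. H2-M3, which presents bacterial N-formyl peptides, had 5.19, 5.34 and 5.09 FPKM in NC and 6.35, 5.88 and 5.80 in KD. Every KD library was above every NC library, with a log2 difference of 0.17 (SE 0.06, limma adjusted p = 0.087) that did not pass. With each chromosome's median removed, the H2-M3 difference was 0.01 (limma adjusted p = 0.918). H2-Q1 had 4.22, 3.52 and 2.71 FPKM in NC and 2.29, 2.07 and 4.196 in KD, and the groups overlapped (log2 difference -0.25, SE 0.22, limma adjusted p = 0.458). H2-Q4 and H2-M3 carry the shorter interferon element that H2-K1 carries. Whether the form of the element bears on these differences was not tested.

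**Figure D2:**
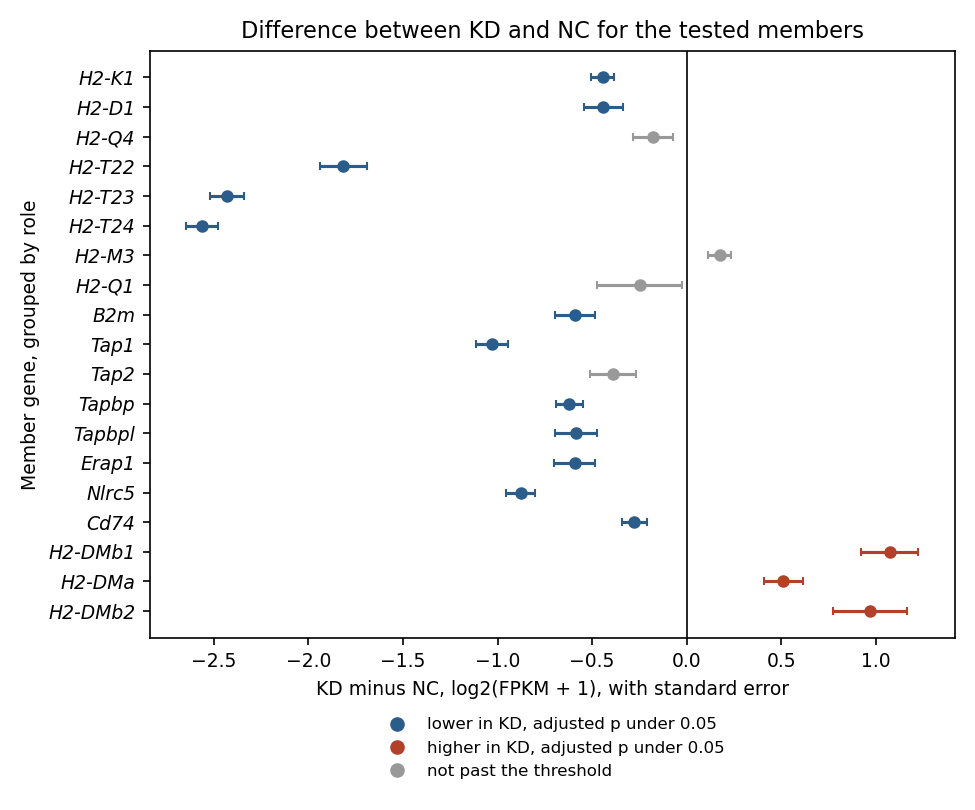
Log2 difference between KD and NC on the log2(FPKM + 1) scale for the 19 tested members, with the standard error of the limma fit, blue for the 12 lower, red for the 3 higher and grey for the 4 not past the threshold. The points run from -2.56 for H2-T24 to 1.07 for H2-DMb1, with most loading genes between -0.39 and -1.03.

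Summed over the 24 class I heavy-chain genes, expression was 431, 414 and 424 FPKM in NC and 279, 268 and 295 in KD. The classical pair went from 286 ± 5.04 to 210.2 ± 13.1 FPKM (SD, n = 3). The class Ib genes together held 137 ± 3.58 FPKM and 70.4 ± 9.32 FPKM. The class Ib share of the sum was 32.6%, 32.2% and 32.3% in the NC libraries and 21.6%, 27.1% and 26.6% in the KD libraries. It was lower in every KD library, by 7.28 percentage points on average (exact two-sided permutation p = 0.1, the smallest that 3 against 3 allows). Without KD1 the difference was -5.52 percentage points. Within the sum, H2-T22, H2-T23 and H2-T24 together went from 18.4% ± 0.332 to 6.02% ± 0.849, while H2-Q4 went from 11.7% ± 0.155 to 15.7% ± 2.28 and H2-K1 from 54.2% ± 0.049 to 60.02% ± 3.18 (SD, n = 3).

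**Figure D3:**
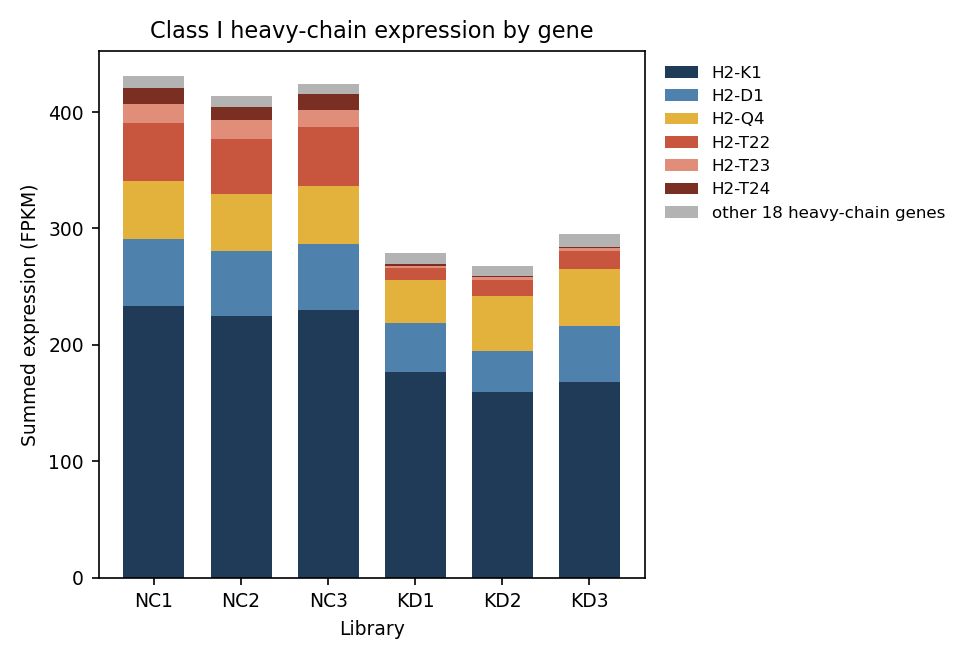
Summed FPKM of the 24 class I heavy-chain genes in each library, stacked by gene, with the bars starting at 0. The NC bars reach 414 to 431 FPKM and the KD bars 268 to 295 FPKM, and the red segments for the T-region genes shrink more in proportion to their NC height than the blue segments for H2-K1 and H2-D1.

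The light chain fell in proportion to the heavy chains on average. B2m (chromosome 2, 122147686 to 122153083, plus strand, ENSMUSG00000060802) had 1329.85, 1344 and 1276 FPKM in NC and 1029.7, 802 and 806 FPKM in KD. The KD level was 66.8% of NC, a log2 difference of -0.59 (SE 0.11, limma adjusted p = 0.00929). KD1 lay between the NC libraries and the other KD libraries, and without it the difference was -0.71 (limma adjusted p = 0.000225). Relative to B2m, the heavy-chain sum was 0.322 ± 0.012 in the NC libraries and 0.324 ± 0.048 in the KD libraries (SD, n = 3). The log2 ratio differed by less than 0.01 (exact two-sided permutation p = 1). KD1 had the lowest ratio of all 6 libraries (0.271) and KD3 the highest (0.366). The equality of the means therefore rests on KD libraries that differ among themselves by more than the NC libraries do.

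In the peptide-loading machinery 5 of the 6 members fell (Tap1, Tap2, Tapbp, Tapbpl, Erap1 and the transactivator Nlrc5). Of all genes tested, 13.6% were lower. Tap1 and Tap2 encode the subunits of the peptide transporter and are neighbours in the class II part of the region. Tap1 (plus strand of chromosome 17, 34187553 to 34197225, ENSMUSG00000037321) had 32.0, 31.9 and 30.5 FPKM in NC and 13.1, 16.2 and 15.6 in KD. It fell to 47.6% of the NC level, a log2 difference of -1.03 (SE 0.08, limma adjusted p = 0.000465). Tap2 (34203527 to 34216321, ENSMUSG00000024339) had 20.2, 19.8 and 21.4 FPKM in NC and 12.5, 16.6 and 17.5 in KD. All KD libraries were lower, at 75.8% of NC on average, but the log2 difference of -0.39 (SE 0.12) did not pass (limma adjusted p = 0.0578). Without KD1 it was -0.25 and passed (0.0116), without KD3 it was -0.48 and passed (0.0406), and voom on the recovered reads gave -0.42 (0.0299). In all, Tap2 passed in 7 of 21 alternatives. Tap1 was 1.54 ± 0.101 times the level of Tap2 in NC and 0.973 ± 0.079 times in KD (SD, n = 3).

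Tapbp, which encodes tapasin, the bridge between TAP and the empty heavy chain, had 149, 142 and 142 FPKM in NC and 85.6, 99.6 and 95.7 in KD (64.9% of NC, log2 difference -0.62, SE 0.07, limma adjusted p = 0.00174). Tapbpl, which encodes the peptide editor TAPBPR, had 6.19, 6.42 and 5.90 FPKM in NC and 3.10, 4.47 and 3.85 in KD (61.6%, log2 difference -0.59, SE 0.11, limma adjusted p = 0.0116). The Tapbpl call was lost without NC2 (0.0527) and with each chromosome's median removed (0.0656). Erap1, the trimming aminopeptidase, had 18.0, 18.0 and 15.4 FPKM in NC and 12.7, 10.8 and 9.74 in KD (64.6%, log2 difference -0.59, SE 0.11, limma adjusted p = 0.0102). Nlrc5, which drives class I promoters, had 10.8, 11.03 and 11.2 FPKM in NC and 5.95, 5.76 and 4.94 in KD. It fell to 50.4% of NC (log2 difference -0.88, SE 0.08, limma adjusted p = 0.000548), and the groups of each of these 4 genes did not overlap.

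The KD libraries did not share a single order across members. KD1 was the lowest KD library for Tap1, Tap2, Tapbp, Tapbpl, H2-T22, H2-T23, H2-Q4, Cd74 and the H2-DM genes, and the highest for B2m, H2-K1, H2-M3, H2-T24, Erap1 and Nlrc5. Without KD1, 13 members were lower and 3 higher, where 21.5% and 20.9% of all genes were called in those directions. With no filter on level, 10 members were lower and 3 higher, where 5.37% and 3.51% of 28280 genes were called.

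The class II genes present were accessories without the molecules they serve. H2-Aa, H2-Ab1, H2-Eb2 and H2-Ob had 0 reads in all 6 libraries, which allows up to 0.0335 FPKM in NC and 0.0308 in KD for H2-Aa and 0.0383 and 0.0353 for H2-Ab1, at 3 reads over each group. H2-Eb1 had 10 reads in all, 4 in NC and 6 in KD, and H2-Oa had 11 and 20 reads. Ciita, the master regulator of class II genes, had 15 reads in NC and 13 in KD, 0.0329 and 0.0264 FPKM. Cd74, the invariant chain, was nevertheless among the most abundant members. The gene (chromosome 18, 60803848 to 60812646, plus strand, ENSMUSG00000024610) had 79.0, 75.1 and 70.8 FPKM in NC and 58.3, 62.2 and 64.5 in KD. It was lower in KD, at 82.3% of NC (log2 difference -0.28, SE 0.07, limma adjusted p = 0.025), a call lost without NC1, NC2 or KD2 (0.0807 to 0.104).

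The 3 genes of H2-DM, which exchanges peptides on class II molecules, were higher in KD from a low base. H2-DMa, the alpha chain (plus strand of chromosome 17, 34135182 to 34139101, ENSMUSG00000037649), had 1.93, 2.34 and 2.08 FPKM in NC and 2.997, 3.46 and 3.89 in KD, from 166 and 293 reads. The log2 difference was 0.51 (SE 0.10, limma adjusted p = 0.0148). H2-DMb1, a beta chain (34153072 to 34160230, ENSMUSG00000079547), had 2.22, 1.31 and 1.61 FPKM in NC and 3.89, 5.16 and 5.02 in KD, from 122 and 360 reads, a 2.73-fold level and a log2 difference of 1.07 (SE 0.15, limma adjusted p = 0.00396). H2-DMb2, the other beta chain (34143307 to 34151553, ENSMUSG00000037548), had 0.874, 0.405 and 0.590 FPKM in NC and 1.45, 2.37 and 2.80 in KD, from 51 and 194 reads. It was 3.54-fold higher, with a log2 difference of 0.97 (SE 0.20, limma adjusted p = 0.0146). Every KD library was above every NC library for all 3 genes. The pseudocount of 1 understates these changes, and voom on the recovered reads gave 0.69, 1.45 and 1.79. The H2-DMa call was lost without NC1, NC3 or KD2 (limma adjusted p 0.0564 to 0.0606) and that of H2-DMb2 without NC2, NC3 or KD2 (0.0517 to 0.0604), while H2-DMb1 kept its call without any 1 library. Cd74 was 35.7 ± 4.59 times the level of H2-DMa in NC and 18.0 ± 1.45 times in KD (SD, n = 3).

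The remaining members were near or at the limit of detection. Of the 43, 12 had 0 reads and 12 had reads but a mean under 1 FPKM. Beside the class II genes, H2-M1, H2-M9, H2-M11, H2-M10.1, H2-M10.3, H2-M10.4, H2-M10.5 and H2-M10.6 had 0 reads. The M1 and M10 families are known from neurons of the vomeronasal organ. H2-T3 had 38 reads in NC and 44 in KD (0.291 and 0.306 FPKM), H2-Q10 had 15 and 17, H2-Q7 11 and 13, and H2-M10.2 9 and 5. H2-M5, H2-Q6, H2-Q2 and H2-M2 had between 2 and 7 reads in all 6 libraries, and H2-Ke6 had 3, all in NC2. In the fit without a filter on level, the 12 genes with reads had a limma adjusted p of at least 0.319.

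Reads could be split between related or overlapping genes for some members. Of the 100-base words in the GENCODE transcripts of each tested member, 31.5% for H2-T22, 14.8% for Tapbp, 14.1% for H2-Q4, 11.3% for H2-DMb1, 10.3% for H2-DMb2 and 10.02% for Erap1 also occur in a transcript of another gene. For H2-T22 most of these are in the antisense gene A930015D03Rik, listed at 0.0187 FPKM in NC and 0.0532 in KD, and others are in H2-T10. Most shared words of Tapbp and H2-Q4 were in the antisense genes Gm19412 and Gm11131, with group means of at most 0.0417 and 0.134 FPKM. Other partners of H2-Q4 included the heavy-chain gene H2-Q6 (30 words), Olfr204 (29 words) and Cd200r3, Jakmip2 and Tyms (28 words each). H2-DMb1 and H2-DMb2 share words with each other, so their levels are uncertain relative to one another. All shared words of Erap1 were in Cast, on the opposite strand, at 16.5 FPKM in NC and 14.4 in KD. H2-DMa shared 6.58% of its words, all with Brd2, on the opposite strand, at 35.3 FPKM in NC and 40.8 in KD. The part of these overlaps in the Erap1 and H2-DMa differences was not tested. H2-Q1 shared 8.05%, with H2-Q2 and H2-D1 among the partners. H2-T24, H2-M3, B2m, Nlrc5 and Cd74 shared no word, H2-K1 shared 0.957% and H2-T23 3.15%. The reference is that of C57BL/6J and MHC genes vary between strains, so reads of another haplotype may align less completely. The strain was not given and its part in the levels was not tested.

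Among the genes that lie between the H2 genes, more rose than fell. The protein-coding H2- genes span 33996017 to 37483552 on chromosome 17 and 138 other protein-coding genes lie within, Tap1 and Tap2 not counted. Of these 65 were tested, 2 were lower and 23 higher, where 13.6% and 10.9% of all genes were. Their median log2 difference was 0.25 against 0.17 over the 627 tested genes of the chromosome. The 2 lower were Psmb9, an immunoproteasome subunit next to Tap1 (10.7 and 4.09 FPKM, log2 difference -1.21, limma adjusted p = 0.000909), and Cdsn (26.3 and 17.4 FPKM, log2 difference -0.58). The largest rises were Gpsm3 (3.67 and 8.75 FPKM, 1.04), Ddah2 (2.47 and 5.86 FPKM, 0.96) and Flot1 (2.21 and 4.86 FPKM, 0.85). The count of neighbours that rose varied from 8 to 41 when 1 library was left out. The 41 were without KD1, where 20.9% of all genes were called higher. With each chromosome's median removed 6 neighbours were lower and 10 higher, and 13 members were lower and 3 higher. The shares of all genes called in that fit were not computed, so these counts have none to set beside them. In that fit H2-Q4 (log2 difference -0.34, limma adjusted p = 0.0447) and Tap2 (-0.55, 0.0144) passed as lower and Tapbpl was lost. The H2-DM differences were 0.35, 0.91 and 0.81 for H2-DMa, H2-DMb1 and H2-DMb2.

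**Figure D4:**
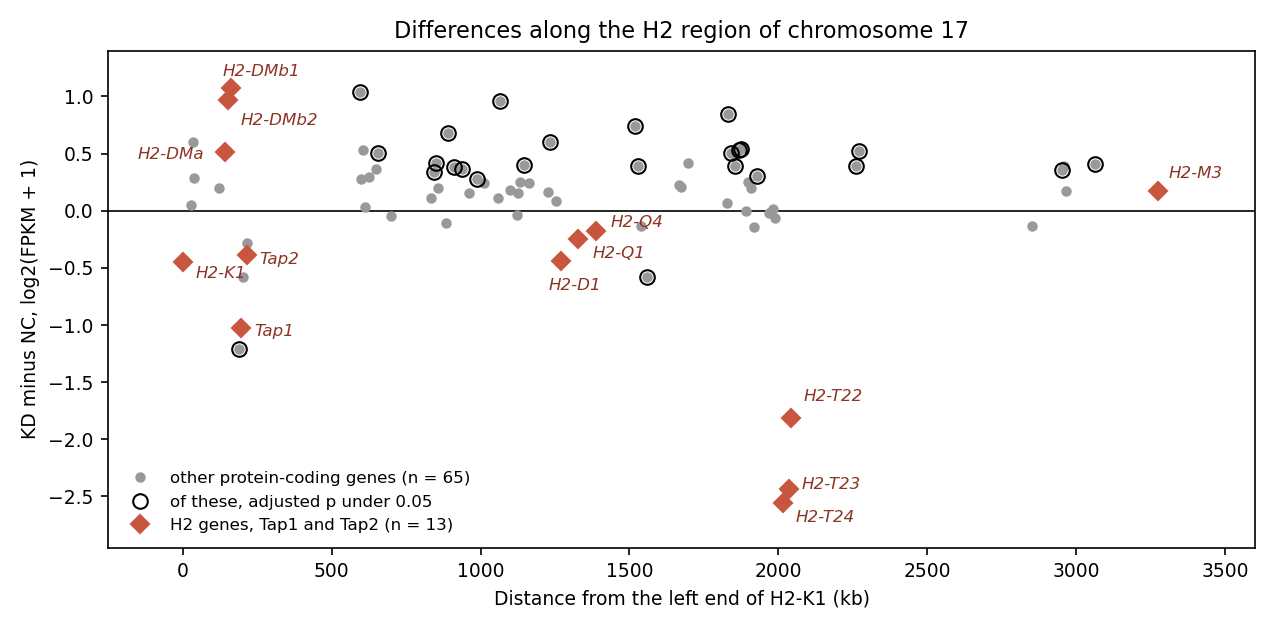
Log2 difference between KD and NC against distance from the left end of H2-K1 in kilobases, for the 65 tested neighbours (grey, ringed where past the threshold) and for 13 members in the same stretch (red diamonds). The T-region genes lie far below a band of neighbours that are mostly above 0, and Psmb9 is the ringed neighbour beside Tap1.

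Genes that work with the members were counted in lists. The shares to set beside each list, here and below, are 13.6% lower and 10.9% higher over all genes tested. Without KD1 these shares are 21.5% and 20.9%. Of 16 class I pathway partners, all tested, 6 fell and 3 rose (median log2 difference -0.13), and the counts ranged from 4 to 9 lower and 0 to 4 higher when 1 library was left out. The 4 largest falls were in the proteasome genes that interferon induces, Psme2 (25.3 to 9.98 FPKM, log2 difference -1.27), Psmb9, Psmb10 (16.3 to 6.57 FPKM, -1.21) and Psme1 (34.7 to 17.8 FPKM, -0.93), all with limma adjusted p of at most 0.00657. Thop1, a cytosolic peptidase gene, was the fifth (22.5 to 16.6 FPKM, -0.43, limma adjusted p = 0.0433). Without NC1, NC2, NC3 or KD2, only 4 of the list fell. The third immunosubunit gene, Psmb8, had 13.7 and 9.20 FPKM (limma adjusted p = 0.122). The 3 that rose were the aminopeptidase genes Lnpep (16.3 to 22.3 FPKM, 0.42, limma adjusted p = 0.0212) and Npepps (22.2 to 25.8 FPKM, 0.21, 0.0299) and Calr, a lectin chaperone gene of heavy-chain folding (341 to 449 FPKM, 0.39, 0.0186). All 3 calls were lost without NC1, NC2, NC3 or KD2 and with chromosome medians removed (limma adjusted p from 0.0678 to 0.144). Canx, the other lectin chaperone gene (251 and 279.6 FPKM), and Pdia3, an oxidoreductase gene of the loading complex (276 and 303 FPKM), did not pass.

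Of 19 tested regulators of MHC genes 6 fell and 2 rose (median -0.09), where 13.6% and 10.9% of all genes did. Among the falls were Irf7 (99.98 to 12.5 FPKM, log2 difference -2.91), Stat2 (53.6 to 18.7 FPKM, -1.47), Irf1 (11.8 to 8.34 FPKM, -0.46), Irf9 (16.7 to 12.03 FPKM, -0.44) and Atf1 (39.4 to 31.5 FPKM, -0.31), all with limma adjusted p of at most 0.0122. Nfya, a subunit of NF-Y, rose from 7.79 to 10.45 FPKM (0.38) and Stat3 from 8.94 to 11.9 FPKM (0.37). The RFX subunits that bind the X box did not pass, with Rfx5 at 2.63 and 2.42 FPKM, Rfxap at 11.1 and 9.80 and Rfxank at 0.955 and 1.48 FPKM, nor did Nfyb, Nfyc, Creb1, Rela, Nfkb1, Irf2, Irf3 or Ezh2. Irf8 had 2 reads in all. Left out 1 at a time, the libraries gave 5 to 8 lower and 1 to 5 higher regulators. The 8 and 5 were without KD1, where 21.5% and 20.9% of all genes were called.

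Of 9 tested interferon receptors, kinases and feedback genes 1 fell and 0 rose (median -0.06), where 13.6% and 10.9% of all genes did. The 1 that fell was the feedback inhibitor Socs1 (3.10 to 1.90 FPKM, log2 difference -0.50, limma adjusted p = 0.0140). The receptor genes Ifngr1 (8.43 and 7.90 FPKM), Ifngr2 (16.2 and 14.1), Ifnar1 (10.6 and 11.4) and Ifnar2 (6.75 and 7.87) and the kinase genes Jak1, Jak2 and Tyk2 did not pass. Without KD1 2 fell and 3 rose in this list, and without NC2, NC3 or KD2 0 fell. Ifng had 0 reads in all 6 libraries, and Ifnb1 had 18 reads in NC and 2 in KD. Of 7 tested class II pathway partners the cathepsin gene Ctsb fell (102.1 to 86.97 FPKM, -0.23, limma adjusted p = 0.0179) and the protease gene Ctsd (78.9 to 100.3 FPKM, 0.34, limma adjusted p = 0.00648) and the thiol reductase gene Ifi30 (44.3 to 54.1 FPKM, 0.28, limma adjusted p = 0.0159) rose. The Ctsb call was lost without NC1, NC2, NC3 or KD2, and 1 to 3 of the list rose with 1 library left out. Ctss, the protease that finishes the cleavage of the invariant chain in antigen-presenting cells, had 13 reads, all in NC.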

How the data were processed

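The authors deposited FPKM values per gene for 6 libraries, with gene length, position and biotype per the file headers. Reads were aligned with HISAT2 2.0.5, per the labels' protocols, to mm10, per the submitters' processing notes. Which counter, strand setting and annotation release the authors used is not given in the sources here. Coordinates matched GENCODE M21 for 98.3% of the 54409 gene IDs held by both.

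Multiplied by gene length, 100.0% of the values above 0 were whole multiples of the library's step within 0.01, which gave back the reads per gene. Groups were compared on the log2(FPKM + 1) scale by limma (version 3.58.1, R 4.3.3), with the prior variance following mean level. The 12299 genes whose mean reached 1 FPKM were tested, and a Benjamini-Hochberg adjusted p under 0.05 was called. Ratios within libraries were compared by exact permutation in scipy 1.17.1. Detection limits are 3 reads and cover counting error only. The code was checked on simulated data.

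All members were named, with at most 5 called genes a list by size of difference, the regulators and receptors (1 regulator is not reported here), and at most 3 neighbours in each direction. Calr, Lnpep, Npepps, genes of the other lists that did not pass or were not tested, and marker genes were named outside this rule, after their values were seen. The members and lists were chosen with earlier results of these data known. Alternatives were pseudocounts of 0.1 and 5, filters, scalings, variance models, voom on recovered reads, a replicate block and each library left out. Chromosome medians and a GC and length trend were added after the data were seen.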

Additional observations from a re-analysis of the deposited data

How the results depend on the processing

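Of the 19 tested members, 10 kept their direction and their side of the threshold in all alternatives that could be run for them, up to 21 each. These were H2-K1, H2-T22, H2-T23, H2-T24, Tap1, Tapbp, Erap1, Nlrc5 and H2-DMb1, which were always called, and H2-M3, which never was. The number of members lower in KD stayed between 9 and 14. It was 14 with the GC and length trend removed, where H2-Q4 (limma adjusted p = 0.0268) and Tap2 (0.0019) passed. Shares of all genes called were computed only for the main fit, the fit without KD1 and the fit without a filter. Counts from the other fits have no such share beside them, so their range does not measure stability. The number higher was 3, fell to 0 with a filter of 5 FPKM, which left the H2-DM genes untested, and ranged from 1 to 3 when 1 library was left out (1 without NC3 or KD2, 2 without NC1 or NC2). Without a filter 10 members were lower, and B2m (limma adjusted p = 0.109) and H2-D1 (0.0591) were lost. H2-Q1 changed sign with array weights (0.067). The cause was not tested. With the replicate block 11 members were lower and 3 higher, the change being the loss of Cd74 (limma adjusted p = 0.0664). Same-numbered libraries had correlations of deviations of 0.08, -0.04 and 0.15, so the number was not taken as a pairing. The log2 difference in the H2-D1 to H2-K1 ratio was -0.003 and ranged from -0.10 to 0.066 with 1 library left out, positive without NC2, NC3, KD1 or KD2. That of heavy chains to B2m was -0.001 and ranged from -0.10 to 0.12, positive without NC1, NC3 or KD1. The class Ib share difference lay between -8.83 (recovered reads) and -5.52 percentage points (without KD1). Members under 1 FPKM are limited by depth.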

Other observations

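Among class I-like molecules encoded outside the H2 region, 7 of the 14 found were tested, 2 rose and 0 fell (1 to 3 rose with 1 library left out). Of all genes tested 10.9% rose and 13.6% fell. Ulbp1, a ligand of the activating natural killer receptor NKG2D, rose from 10.7 to 20.7 FPKM (log2 difference 0.89, limma adjusted p = 0.000220). Fcgrt, the neonatal Fc receptor heavy chain that also pairs with beta-2-microglobulin, rose from 10.06 to 15.1 FPKM (0.53, limma adjusted p = 0.0283). Raet1e, from another family of NKG2D ligands, had 68, 63 and 69 reads in the NC libraries and 0 in each KD library, at least 72.5-fold lower against 3 reads over the KD group. It had a mean under 1 FPKM and was not tested, and it was singled out after its values were seen. Its annotated span contains Raet1d, which had 5.45 FPKM in NC and 5.15 in KD (limma adjusted p = 0.733).

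Of 7 tested genes for T cell costimulation and inhibition 1 fell and 0 rose, where 13.6% and 10.9% of all genes did. Cd40, a receptor for T cell help, fell from 8.01 to 2.70 FPKM (log2 difference -1.28, limma adjusted p = 0.000149). The inhibitory ligand Cd274 had 1.32 and 0.878 FPKM (limma adjusted p = 0.185) and the costimulatory ligand Cd80 3.82 and 4.50 FPKM (limma adjusted p = 0.250). Of 11 H2 genes that are not annotated as protein-coding 2 were tested, and these were looked at after the values were seen. H2-T10, a relative of H2-T22 with shared sequence, had 3.99, 4.55 and 4.63 FPKM in NC and 1.36, 1.41 and 1.45 in KD (log2 difference -1.16, SE 0.08, limma adjusted p = 0.000266). H2-T-ps had 1.39 and 0.658 FPKM and did not pass.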
